A study of Homo sapiens with 6 samples.

Results

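miR-21 is the product of the human MIR21 gene, and both strands of its hairpin, hsa-miR-21-5p (MIMAT0000076) and hsa-miR-21-3p (MIMAT0004494), had a probe of their own on the array. These 2 of 2019 human miRNA probes were taken by name. They were measured in the established cell line HuH7, which derives from a human hepatocellular carcinoma, grown in serum-supplemented medium and given 1 µg/ml cisplatin, a platinum drug that crosslinks DNA, or no cisplatin for 24 h. Total RNA of 3 cisplatin and 3 control samples was labelled and put on 1-colour arrays with 1 spot per human probe. Within each group the samples are numbered 1 to 3, but the labels do not say that they were separate cultures, so every p-value measures the spread between these samples only, which may be technical. All cells came from 1 cell line, and 1 dose and 1 time were used.

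A hairpin precursor is cut by Drosha and Dicer into a duplex, and one strand is loaded into an Argonaute protein, where its seed (bases 2 to 8 from the 5′ end) pairs with messenger RNAs to repress them. For miR-21 the 5p strand is the guide that is usually retained, while the 3p strand is the less abundant passenger. miR-21-5p is among the best known cancer-promoting miRNAs. Its established targets include the tumour suppressor PDCD4, an inhibitor of translation. In liver cancer its level is commonly raised, and the factors STAT3, NF-kB and AP-1 can activate its transcription from a promoter inside the host gene VMP1.

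The sequences below are given because the seed defines which other miRNAs could share targets with miR-21-5p, and because both measured strands come from 1 precursor. RefSeq (GRCh38.p14) places the hairpin at chr17:59841266-59841337 on the plus strand, inside the annotated span of VMP1, with miR-21-5p at chr17:59841273-59841294. Mature sequences are printed with the seed in capitals, and the hairpin with the stretch of miR-21-5p in capitals (bases 8 to 29 of 72).
miR-21-5p: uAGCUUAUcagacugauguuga
miR-590-5p: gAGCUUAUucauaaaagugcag
MIR21 hairpin: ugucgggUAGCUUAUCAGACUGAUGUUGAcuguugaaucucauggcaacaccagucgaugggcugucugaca
Of 2370 named human mature miRNAs in the RefSeq table, 2 carry the seed AGCUUAU, miR-21-5p and miR-590-5p, which lies at chr7:74191213-74191234 on the plus strand. Outside the seed they share the base at 1 of 15 positions.

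The median raw foreground of the human probes was 202 to 226 scanner units on cisplatin arrays and 214 to 227 on control arrays. The 925 blank spots of each array set a detection limit at their mean plus 2 SD, which was a foreground of 209 to 247 on cisplatin and 220 to 240 on control arrays. Cisplatin arrays had 329 to 713 detected probes and control arrays 500 to 738. The comparison was run on the 324 probes that exceeded the limit on every array of the cisplatin group, of the control group or of both, and both strands of miR-21 were among the 243 detected on all 6. The scanner's headers give each array a number under Cell, which was read here as its slide position. No position held both groups (cisplatin at 2 and 4, control at 1 and 3), so the effect of position and that of the drug cannot be told apart.

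hsa-miR-21-5p was well above background in HuH7 cells and gave more signal on each cisplatin array than on any control array. Its raw foreground was 2581, 3263 and 2729 on cisplatin arrays 1, 2 and 3, against 1687, 2270 and 1981 on control arrays 1, 2 and 3. All 3 cisplatin values lay above all 3 control values, and every value was far above its blank limit. Of the 324 tested probes, 31 (9.57%) likewise had raw values without overlap and higher after cisplatin. In bulk RNA such as this, more cells with a miRNA and more of it per cell cannot be told apart.

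**Figure D1:**
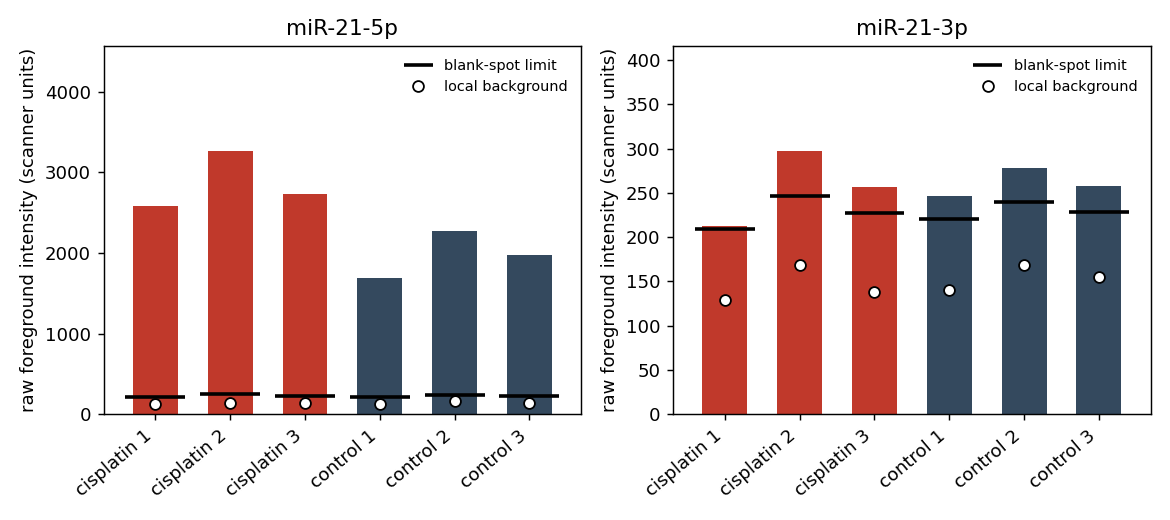
Raw foreground intensity (bars, scanner units from 0) of the miR-21-5p spot (left) and the miR-21-3p spot (right) on the 3 cisplatin arrays (red) and the 3 control arrays (dark blue), with the local background of the spot (open circles) and the blank-spot limit of the array (black lines). The scales differ: miR-21-5p reaches 3263 and its groups do not overlap, whereas miR-21-3p stays between 213 and 297, close to the limit, and its groups overlap.

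Raw foreground of miR-21-5p averaged 2858 ± 359 in cisplatin and 1979 ± 292 in control samples (SD, n = 3 each), a ratio of 1.44. The exact two-sided permutation test gave p = 0.1, which is the smallest value that 3 against 3 arrays allow. The local background around this spot was 129, 146 and 137 on cisplatin arrays 1, 2 and 3 and 130, 167 and 145 on control arrays, lower on the cisplatin array of each number. The scanner's signal-to-noise score of the same spot was 64.1, 52.9 and 59.7 on cisplatin arrays and 35.0, 36.7 and 33.2 on control arrays. This score was not compared with that of other probes and is not a second measurement.

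After background correction and quantile normalization, miR-21-5p stood at 11.48, 11.48 and 11.22 on the log2 scale in cisplatin samples 1, 2 and 3, against 10.99, 11.10 and 10.94 in control samples. The groups remained apart on this scale, and the first 2 cisplatin values are equal because the probe held the same rank on both arrays. The log2 fold change was 0.38 (SE 0.094, 95% interval 0.15 to 0.62), or 1.30-fold with an interval of 1.11 to 1.53. It did not pass the threshold (limma adjusted p = 0.129, unadjusted p = 0.00764). Of the 2 strands 0 passed, where 1 of 324 probes, or 0.309%, did. That probe was miR-1304-3p (at least 1.30-fold higher after cisplatin, limma adjusted p = 0.0118), which entered the test only through the cisplatin group, where it was above the limit, so the filter favoured its direction. With the replicate number as a block its limma adjusted p was 0.161, and 0 probes passed. When 1 array was left out it passed only without cisplatin replicate 2 (limma adjusted p = 0.0391). At an unadjusted p under 0.05 with a higher value after cisplatin there were 26 probes (8.02%), miR-21-5p included. On the normalized scale 28 probes (8.64%) had groups without overlap and higher after cisplatin.

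Between samples of the same number, miR-21-5p was higher in the cisplatin sample in 3 of 3 pairs, by 0.49, 0.38 and 0.28 on the normalized log2 scale for numbers 1, 2 and 3. This held for 62 of the 324 tested probes (19.1%). With the number entered as a block the estimate was the same, with an SE of 0.061 and a limma adjusted p of 0.175.

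The array's 2 kinds of spike control spots, 8 spots of each, give the spread between spots of 1 probe within an array, a coefficient of variation of 3.89% to 9.66%. These controls were themselves somewhat brighter after cisplatin, with a mean of 11930 ± 1913 in cisplatin and 10410.4 ± 1391 in control samples for the first (SD, n = 3 each, exact permutation p = 0.4), a ratio of 1.15, and a ratio of 1.13 for the second. Relative to the mean of all spike spots, raw miR-21-5p was 29.5%, 30.9% and 21.7% in cisplatin samples 1, 2 and 3, against 22.0%, 22.8% and 19.0% in control samples. On this scale cisplatin sample 3 fell just below the control samples 1 and 2, so the groups overlapped. With arrays scaled to the spike spots the log2 fold change was 0.38, but the limma adjusted p was 0.837. What the spike spots contain is not given in the sources used here, and their part in the result was not tested.

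hsa-miR-21-3p, the passenger strand, was dim and did not differ beyond its spread. Its raw foreground was 213, 297 and 256 on cisplatin arrays 1, 2 and 3, against 246, 278 and 258 on control arrays. The cisplatin group held both the lowest and the highest value, and the groups overlapped. The margin over the blank limit was 4.37, 50.5 and 28.6 units on cisplatin arrays and 25.9, 38.2 and 29.9 units on control arrays, so on cisplatin array 1 this strand was barely above it.

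The normalized log2 values of miR-21-3p were 6.90, 7.32 and 7.15 in cisplatin samples and 7.19, 7.29 and 7.11 in control samples. The log2 fold change was -0.07 (SE 0.12, limma adjusted p = 0.867), with a 95% interval of -0.38 to 0.23. That interval spans 0.771-fold to 1.18-fold. Because folds of dim probes are shrunk on this scale, the interval cannot say whether the strand rose as much as miR-21-5p. With the authors' values the estimate was -0.15 (SE 0.37). The estimate turned to 0.04 (limma adjusted p = 0.848) without cisplatin replicate 1.

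Whether the change differed between the strands of the hairpin was read from their difference within each array. The within-array difference of miR-21-5p minus miR-21-3p was 4.58, 4.15 and 4.07 log2 units in cisplatin samples 1, 2 and 3, against 3.80, 3.81 and 3.83 in control samples. Only its change between groups is read here, since the levels of 2 probes on an array cannot be compared. Folds of a dim probe such as miR-21-3p are shrunk, and the part of this in the change was not tested. The difference averaged 4.27 ± 0.27 in cisplatin and 3.81 ± 0.015 in control samples (SD, n = 3 each), larger by 0.45 after cisplatin and without overlap between the groups (exact two-sided permutation p = 0.1, the smallest possible). It was larger by 0.31 without cisplatin replicate 1, which had the highest of the 6 differences and the lowest miR-21-3p signal. Without number 1 of both groups it was larger by 0.30.

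**Figure D2:**
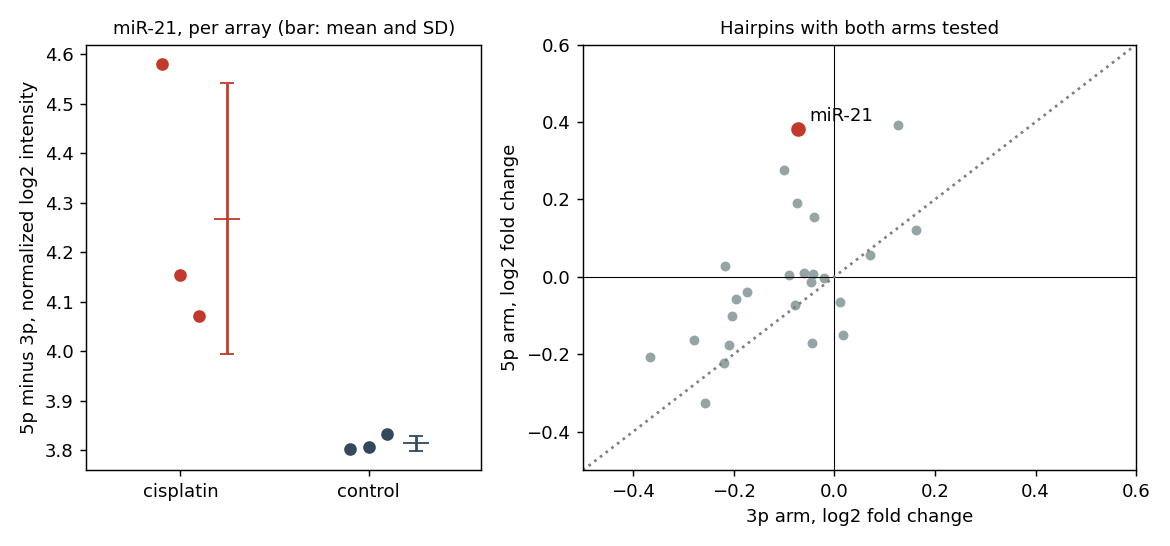
Left, miR-21-5p minus miR-21-3p in normalized log2 intensity for each cisplatin (red) and control (dark blue) array, with the mean and SD beside the points. The cisplatin values of 4.07 to 4.58 all exceed the control values of 3.80 to 3.83. Right, the log2 fold change (cisplatin over control) of the 5p strand against that of the 3p strand for the 25 hairpins with both strands tested, with miR-21 in red and the line of equal change dotted.

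Among the 25 hairpins with both strands tested, miR-21 had the largest difference between the changes of its strands in the main analysis. The median absolute difference was 0.10, and in 6 of 25 hairpins (24%) the groups did not overlap in it. Next to miR-21 came miR-4695 at 0.38, miR-425 at 0.27 and miR-125a at 0.27, all 3 also with the higher value for 5p. miR-21 was below miR-4695 with plain background subtraction (0.49 against 0.60), a normexp offset of 16 (0.49 against 0.57) and the authors' values (0.71 against 0.80). In 10 of the 25 the strands lay on opposite sides of 0, as for miR-21. One strand being close to the blank limit is common to many of these pairs, and its part in the differences was not tested.

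Set among all 324 tested probes, miR-21-5p ranked 11th from the top by log2 fold change and miR-21-3p 216th. Values at or above that of miR-21-5p were held by 3.40% of the probes. The median of all tested probes was -0.012, and from the 10th to the 90th percentile they spanned -0.21 to 0.23. Just above miR-21-5p stood miR-425-5p (0.39, SE 0.064) and miR-24-3p (0.39, SE 0.11), and just below it miR-7-1-3p (0.37, SE 0.31) and miR-130a-3p (0.35, SE 0.085). These 4 differed from miR-21-5p by less than the SE of any of them. Without control replicate 1, miR-7-1-3p was at 0.04 and miR-24-3p at 0.24, against 0.36 for miR-21-5p, and without cisplatin replicate 2 miR-7-1-3p was at 0.24. Without control replicate 3 it was at 0.59. miR-21-3p stood between miR-4466 and miR-30e-5p, below the middle of the order.

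**Figure D3:**
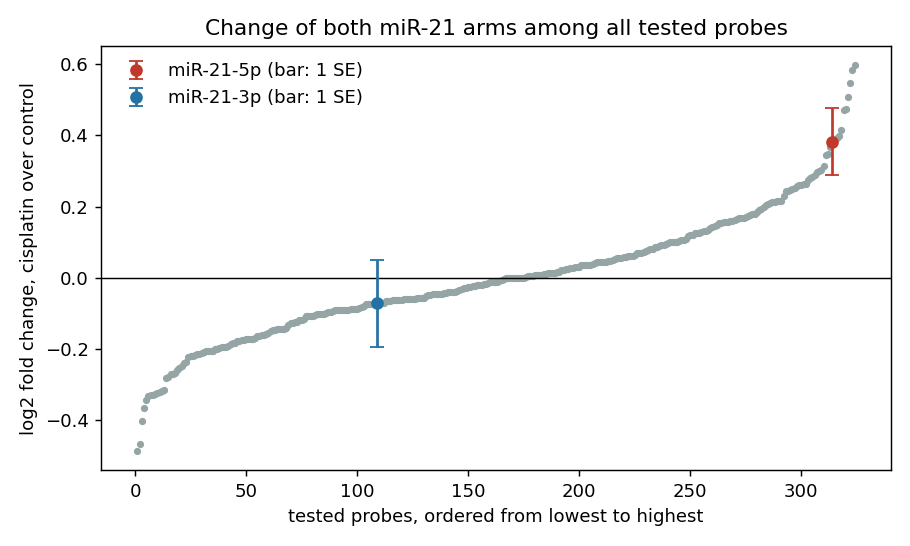
Log2 fold change (cisplatin over control) of the 324 tested probes in order from lowest to highest (grey), with miR-21-5p in red and miR-21-3p in blue, bars showing 1 SE. miR-21-5p at 0.38 lies near the upper end and miR-21-3p at -0.07 below the middle.

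Over the 6 arrays, the probes whose normalized values went most closely with those of miR-21-5p were miR-4725-3p (Pearson r = 0.92), miR-34a-5p, miR-4695-5p and miR-671-5p (0.89 each) and miR-27b-3p (0.89). miR-34a-5p is known as a direct transcriptional target of p53. Its log2 fold change was 0.31 (SE 0.083) and did not pass (limma adjusted p = 0.146). The state of p53 in these cells was not measured. The r values mix the difference between groups with the spread inside them. After the group means were taken off, r was 0.91 for miR-4725-3p, 0.52 for miR-34a-5p and 0.33 for miR-27b-3p. For miR-21-3p the closest were miR-3665 (0.96), miR-151a-3p (0.92), miR-4532 (0.91), miR-617 (0.89) and miR-148b-3p (0.89). The strands of miR-21 themselves had r = -0.18. With 6 points that share arrays and normalization these are descriptions only. With arrays scaled to the spike spots r was 0.55 for miR-21-5p with miR-4725-3p. With pixel means in place of medians it was 0.51 for miR-21-3p with miR-148b-3p and 0.59 with miR-617.

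miR-590-5p, which carries the miR-21-5p seed, was at background in HuH7 cells. Its raw foreground was 207, 239 and 211 on cisplatin arrays and 219, 217 and 240 on control arrays, above the limit on 0 of 3 cisplatin and 1 of 3 control arrays. It was not tested, and no fold is given.

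miRNAs encoded near MIR21 were looked at next. The RefSeq table lists 16 other mature miRNAs whose hairpins lie within 5 Mb of it on chromosome 17. All 16 had a probe, of which 3 were tested, as were 324 of the 2019 human probes in all, and 0 passed. miR-301a-3p and miR-454-3p, which share 1 host gene, SKA2, had log2 fold changes of -0.11 (SE 0.12) and 0.17 (SE 0.12). miR-4737 was above the limit on 3 of 3 control arrays and 0 of 3 cisplatin arrays. It entered the test only through the control group, so no fold is given.

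Of 4 other miRNAs known to repress PDCD4, 2 were tested and 0 passed. These were miR-182-5p at 0.30 (SE 0.088, limma adjusted p = 0.172) and miR-96-5p at 0.04 (SE 0.070).

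Of 9 other miRNAs known to be raised by STAT3, NF-kB or AP-1, the regulators of MIR21 transcription, 6 were tested and 0 passed. The median log2 fold change over all 9, without the detection filter, was 0.03. The 5 detected on all 6 arrays had positive estimates, as had 155 of all 324 tested probes. miR-221-3p stood at 0.22 (SE 0.056, limma adjusted p = 0.143) and miR-146a-5p, a feedback inhibitor of NF-kB signalling, at 0.23 (SE 0.066, limma adjusted p = 0.167). miR-125b-5p, miR-222-3p and miR-181b-5p lay at or below 0.16 and above 0. The remaining one, miR-155-5p, was above the limit on 0 of 3 cisplatin and 3 of 3 control arrays. It entered the test only through the control group, so no fold is given.

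Markers of the cell type and of cells that also carry much miR-21 were set beside these values. All 6 hepatocyte-derived markers, miR-122-5p among them, were detected on all 6 arrays, and their summed background-subtracted signal was 7578 to 9681 on cisplatin and 7496 to 8916 on control arrays. On the normalized scale 5 of these 6 had negative estimates (median -0.14) and 0 passed. Of all 324 tested probes, 169 had negative estimates. miR-122-5p was at -0.21 (SE 0.050, limma adjusted p = 0.129) and miR-122-3p at -0.37 (SE 0.072, limma adjusted p = 0.129). Without normalization between arrays they were at -0.10 (SE 0.10) and -0.27 (SE 0.13), and with median scaling miR-122-5p was at -0.083 (SE 0.11). Both miR-122 strands lay on the other side of 0 from miR-21-5p, and their part in its estimate was not tested. Of 6 blood markers 0 were detected on all 6 arrays, with a summed signal of 375 to 534 on cisplatin and 448 to 462 on control arrays, and miR-142-5p was at background on all of them. Of 7 endothelial and stromal markers 3 were detected on all 6 arrays, with sums of 655 to 741 on cisplatin and 563 to 694 on control arrays. The ranges of these sums overlapped between the groups for all 3 lists. On the normalized scale 4 endothelial and stromal markers were tested, 3 with positive estimates (median of the 4 0.093), and 0 passed. The median over all 7, without the detection filter, was 0.039.

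The estimate for miR-21-5p was positive, between 0.32 and 0.59, under the 18 other settings that could move it. It passed the threshold under none of all 25 other settings (limma adjusted p from 0.0689 to 0.941). The largest, 0.59, came from scaling arrays to their 75th percentile and is 1.50-fold. Over all tested probes the median was 0.095 there, and less this shift the value was 0.49. The estimate for miR-21-3p ran from -0.22 to 0.04.

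**Figure D4:**
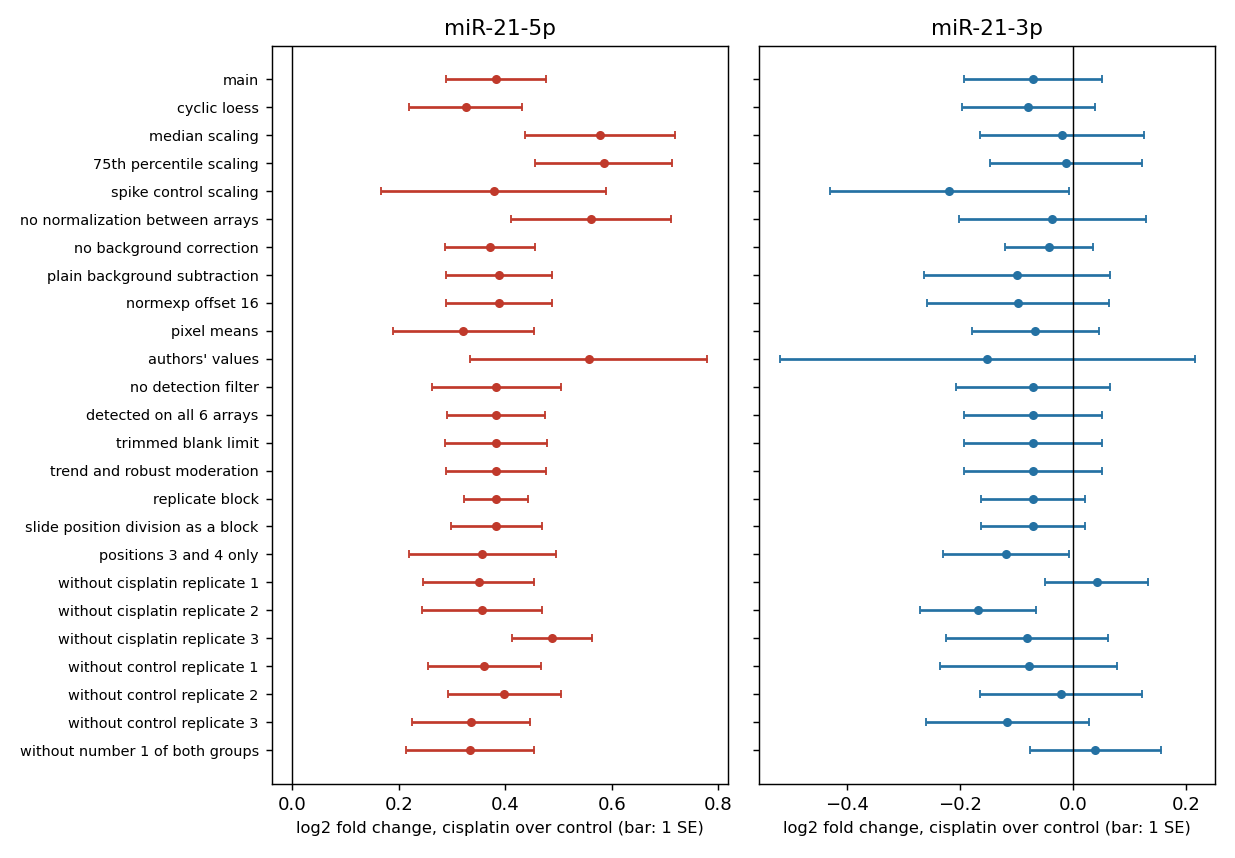
Log2 fold change (cisplatin over control, bars 1 SE) of miR-21-5p (left, red) and miR-21-3p (right, blue) in the main analysis (top) and under the other settings of background correction, normalization, filter, model and left-out arrays. Every miR-21-5p estimate lies between 0.32 and 0.59, while those of miR-21-3p lie on both sides of 0. Settings of filter and model cannot move the estimates.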

How the data were processed

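The deposited scanner files hold linear intensity values of each spot and its local background, per the file headers as pixel medians and means, with the scanner's signal-to-noise score and the ratio of pixel SD to mean. Hy5 was the dye of the commercial labelling kit, per the labels. The authors' deposited processed table (intensity, linear, median 31 on every array) was used only as an alternative. The image software is not given in the sources used here.

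Foreground and background medians were corrected with normexp (offset 50, all 3200 spots), quantile-normalized over the human probes and taken to log2. Groups were compared over 324 probes with limma 3.58.1 (lmFit, eBayes) under R 4.3.3, at 4 residual and 1.52 prior degrees of freedom, and p-values were adjusted by Benjamini-Hochberg over all of them (threshold 0.05). Figures used matplotlib 3.10.9. Folds of dim probes are shrunk by the offset. The log2 fold change of the bright miR-21-5p was 0.38 with quantile normalization and 0.56 without normalization between arrays. Over all tested probes the median was 0.071 without it, and less this shift miR-21-5p was at 0.49. A bound sets the mean of the brighter group against the higher, per array, of the lowest detected signal and the probe's own. The limma fit was tested on simulated log2 values of the tested probes. Background correction, normalization and the detection filter were not tested in this way. The number of arrays limits the precision.

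The members and lists were chosen with earlier results of these data known. Named besides the members were probes sharing the seed, neighbours on the chromosome, up to 6 tested probes of a list by mean signal, the 5 most correlated probes, neighbours in the order of changes, probes past the threshold and the hairpins with the largest strand differences. Deviations from the group means correlated over tested probes at 0.44, 0.24 and 0.20 between samples numbered 1, 2 and 3. Between unlike numbers, cisplatin 2 with control 3 had 0.23 and cisplatin 3 with control 2 had 0.07, and the rest were negative. Only number 1 stood apart, so this check cannot decide the pairing of numbers 2 and 3. Taking the numbers as pairs rests on the labels' numbers, and the main fit did not use them.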

Additional observations from a re-analysis of the deposited data

How the results depend on the processing

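The strand difference of miR-21 stayed positive under the 18 settings that could move it (0.30 to 0.71). These 18 are not all separate. Median, 75th percentile and spike control scaling and no normalization gave the same 0.60, because a factor common to an array cancels. The estimate for miR-21-5p was positive under all 25, and it passed under none of them (the exact test of the strand difference cannot go below 0.1). The detection filter, the moderation, both blocks and the 0.10 threshold cannot move an estimate. The blocks were the replicate number and an assumed division of positions 1 and 2 from 3 and 4. miR-21-3p turned sign without cisplatin replicate 1 (0.042) and without number 1 of both groups (0.039), which was chosen after seeing the data. Leaving out 1 array gave 0.34 to 0.49 for miR-21-5p and -0.17 to 0.042 for miR-21-3p. With the replicate block, miR-21-5p had a limma adjusted p of 0.175 and miR-21-3p of 0.715, and no other call than that of miR-1304-3p was lost. Less the common shift of all tested probes, which was largest with the authors' values (0.14) and spike control scaling (-0.11), miR-21-5p was 0.42 and 0.49 in those 2 settings.

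The number of probes past the threshold was 1. It was 4 with cyclic loess, 2 with median scaling, 3 with the 75th percentile, 3 without background correction and 5 at an adjusted p under 0.10. It was 0 with spike control scaling, without normalization, with pixel means, without a detection filter, with the authors' values, for probes detected on all 6 arrays, with trend and robust moderation, with the replicate block, at positions 3 and 4 only and without number 1 of both groups. In these limma fits 13, 33, 39, 97, 26, 39, 38, 57, 38 and 53 probes had an unadjusted p under 0.05. When 1 array was left out the number was 3 for cisplatin replicate 2 and 0 for each of the others.

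Of the 14 other miRNAs given with a fold change, 11 kept their direction under every setting run. miR-301a-3p turned positive with median scaling (0.038), the 75th percentile (0.045), no normalization (0.021) and the authors' values (0.051), and miR-454-3p negative with spike control scaling (-0.042). miR-96-5p ranged from -0.0080 (without control replicate 1) to 0.082 over the fits that left out 1 array, and reached 0.34 with the authors' values. Of the 10 correlations given, that of miR-21-3p with miR-148b-3p went lowest (0.51). The cause of these changes was not tested. For miR-21-3p the distance to the blank limit, under 51 units on all arrays, limits what can be seen.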
